A study of Mus musculus with 6 samples.

Results

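Cytosolic ribosomal protein genes encode the protein parts of the ribosomes that translate nuclear-encoded mRNAs. They were followed here in 6 RNA-seq libraries of MC3T3-E1 cells, 3 treated with PTH(1-34) and 3 with vehicle. MC3T3-E1 is a mouse calvarial line with osteoblast-like properties, here its subclone 4. PTH(1-34) is the amino-terminal part of parathyroid hormone, which acts through the receptor encoded by Pth1r and raises cyclic AMP. Both groups are 1 established line of 1 subclone, with no genotype difference between them. The sample fields give 30 min of treatment and the protocol gives 2 h, so the exposure behind every value is uncertain. Nothing in the labels says that the 3 libraries of a group are separate cultures. The p-values then reflect only how much these libraries differ from each other, and that spread may be technical.

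Genes were chosen by name, with a symbol beginning Rpl or Rps followed by a number, Rplp0 to Rplp2, or Rpsa. The kinases named Rps6k and symbols containing -ps were left out. This gave 83 of the 13659 symbols in the table, carrying 336 of its 37478 transcripts, and all 83 passed the filter of a mean of at least 1 FPKM. FPKM is a fragment count divided by transcript length and library size. Of the 83, 76 encode standard ribosomal proteins, 42 of the large subunit, 31 of the small subunit and 3 of the P-stalk. A further 4 are paralogs of such genes, Rpl7l1, Rpl22l1, Rps27l and Rpl36al. Rps3a2 and Rps3a3 are annotated as processed pseudogenes, copies of the Rps3a1 mRNA inserted into the genome. Rps19bp1 matched the name but is not a ribosomal protein. It encodes a protein that binds Rps19 and regulates the deacetylase Sirt1. The counts below refer to the 76 standard genes unless another number is given.

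Each ribosome holds 1 copy of nearly every ribosomal protein, so cells keep the output of these genes in balance. The small subunit decodes the mRNA and the large subunit joins amino acids, while the P-stalk, a complex of Rplp0, Rplp1 and Rplp2, recruits elongation factors. Their mRNAs begin with a 5′ terminal oligopyrimidine (TOP) tract, an unbroken run of C and T letters through which mTOR and Larp1 control their translation. That control acts on ribosome loading, which an RNA-seq library does not measure.

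RefSeq start regions of build GRCm38.p6 were matched to 61 of the 83 genes, and to 56 of the 76. Within 50 bases on either side of the annotated start, 45 of these 56 held a run of at least 8 pyrimidines, which is 80.4%. The share was 31.2% in the tested genes that are not members, 33.3% in mitochondrial ribosomal protein genes and 35.7% in all start regions of the table. These shares count the longest run wherever it lay, as from 50 bases before the start in Rpl26 or from base 41 in Rpl10. They are thus not shares of genes with a TOP tract, which begins at the 5′ end of the mRNA. The following windows of 30 bases show the longest run in several genes. Each is read on the gene's own strand from 5′ to 3′ with the longest pyrimidine run in capitals. Such a run of at least 8 was absent in 11 of the 56 standard genes, among them Rplp0 and Rps28, with at most 7 and 5 pyrimidines. The paralogs Rpl22l1, Rpl36al and Rps27l held runs of 10, 10 and 9 bases and are not shown. The windows come from 7 standard genes that hold such a run, and from Rpl7l1 and Rps19bp1, which do not.
Rpl7a: cacaaTTCCCTCTTCTTTCTTTCTCCagca
Rpl27a: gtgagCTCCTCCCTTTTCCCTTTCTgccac
Rpl15: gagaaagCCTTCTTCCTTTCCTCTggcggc
Rpl13a: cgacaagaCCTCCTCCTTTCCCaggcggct
Rps6: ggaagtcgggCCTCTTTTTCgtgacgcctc
Rps18: gtcacttccgCTCTCTCTTCCacaggaggc
Rplp2: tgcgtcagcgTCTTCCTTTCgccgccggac
Rpl7l1: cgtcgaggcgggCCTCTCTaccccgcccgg
Rps19bp1: gctcctgctccagTTTCTgccgaggagcga
The Rpl7a window is chr2:26910788-26910817 on the plus strand, and its run of 21 bases was the longest among the 56 genes. The windows of Rpl27a and Rplp2 are chr7:109519186-109519215 and chr7:141447636-141447665 on the plus strand, with runs of 20 and 10 bases. Those of Rpl15, Rpl13a and Rps18 are chr14:18270968-18270997, chr7:45128722-45128751 and chr17:33955648-33955677 on the minus strand, with runs of 17, 14 and 11 bases. The run in Rps6, at chr4:86857349-86857378 on the minus strand, spanned the annotated start and measured 10 bases. Within 50 bases of the start Rpl7l1, at chr17:46782671-46782700 on the minus strand, had at most 7 pyrimidines in a row. Rps19bp1, at chr15:80264329-80264358 on the minus strand, had at most 5. The standard genes with such a run had a median log2 change between PTH and vehicle of 0.02, and the 11 without one had a median of 0.05.

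Short motifs were searched on both strands from 250 bases before to 50 bases after the start. CCGGAAG, the core bound by the ETS factor GABP, occurred in 41.1% of the 56 start regions, against 19.8% of tested genes that are not members and 9.12% of all start regions. Among mitochondrial ribosomal protein genes it occurred in 36.2%. AAGATGG, a YY1 core, occurred in 14.3%, against 7.85% of tested genes that are not members and 6.48% of all start regions. Among mitochondrial ribosomal protein genes it was more frequent, at 18.8%. GGGCGG, an Sp1 core, stood in 58.9%, against 67.4% and 35.9%. TATAAA, the TATA box, stood in 8.93%, against 6.46% and 14.2%. The cyclic AMP response element TGACGTCA, the letters bound by CREB, occurred in 4 of 56 (7.14%), against 3.46% and 1.88%, and its shorter part TGACG, counted also inside the full element, in 28 of 56, against 33.6% and 21.0%. The 4 genes were Rpl18, Rpl26, Rpl27a and Rps9. Their log2 changes lay between 0.01 and 0.02. The median change was 0.01 in these 4 and 0.03 in the 52 genes whose start region lacks the element. These matches describe letters in a window and say nothing of whether a factor was bound there.

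Ribosomal protein mRNAs were among the most abundant in both groups. Their mean FPKM over the 6 libraries ran from 363 for Rpl29 to 2744 for Rpl41, with a median of 1154, against a median of 11.5 for all 11628 genes tested. The 5 highest were Rpl41, Rps12, Rps15a, Rps18 and Rps28, which held ranks 5, 6, 8, 9 and 10 of the table. Rpl41, the smallest protein of the ribosome, had 2892, 2645 and 2773 FPKM with PTH, against 2618, 2692 and 2845 FPKM with vehicle. Rps12, a small-subunit protein, had 2794, 2680 and 2737 FPKM with PTH, against 2848, 2685 and 2579 FPKM with vehicle. The groups overlapped for both genes, and the difference between the genes was smaller than the spread within a group. Rps18 and Rps28, at 2290 and 2289 FPKM, likewise stood closer together than their libraries did. The lowest were Rpl29, Rpl22, Rpl21, Rps3 and Rpl37, from 363 to 531 FPKM. Rpl22, which also serves as an RNA-binding protein outside the ribosome, had 405, 397 and 413 FPKM with PTH, against 403, 400 and 396 FPKM with vehicle. The range from lowest to highest was 7.56-fold across genes whose proteins are needed in equal number.

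**Figure D1:**
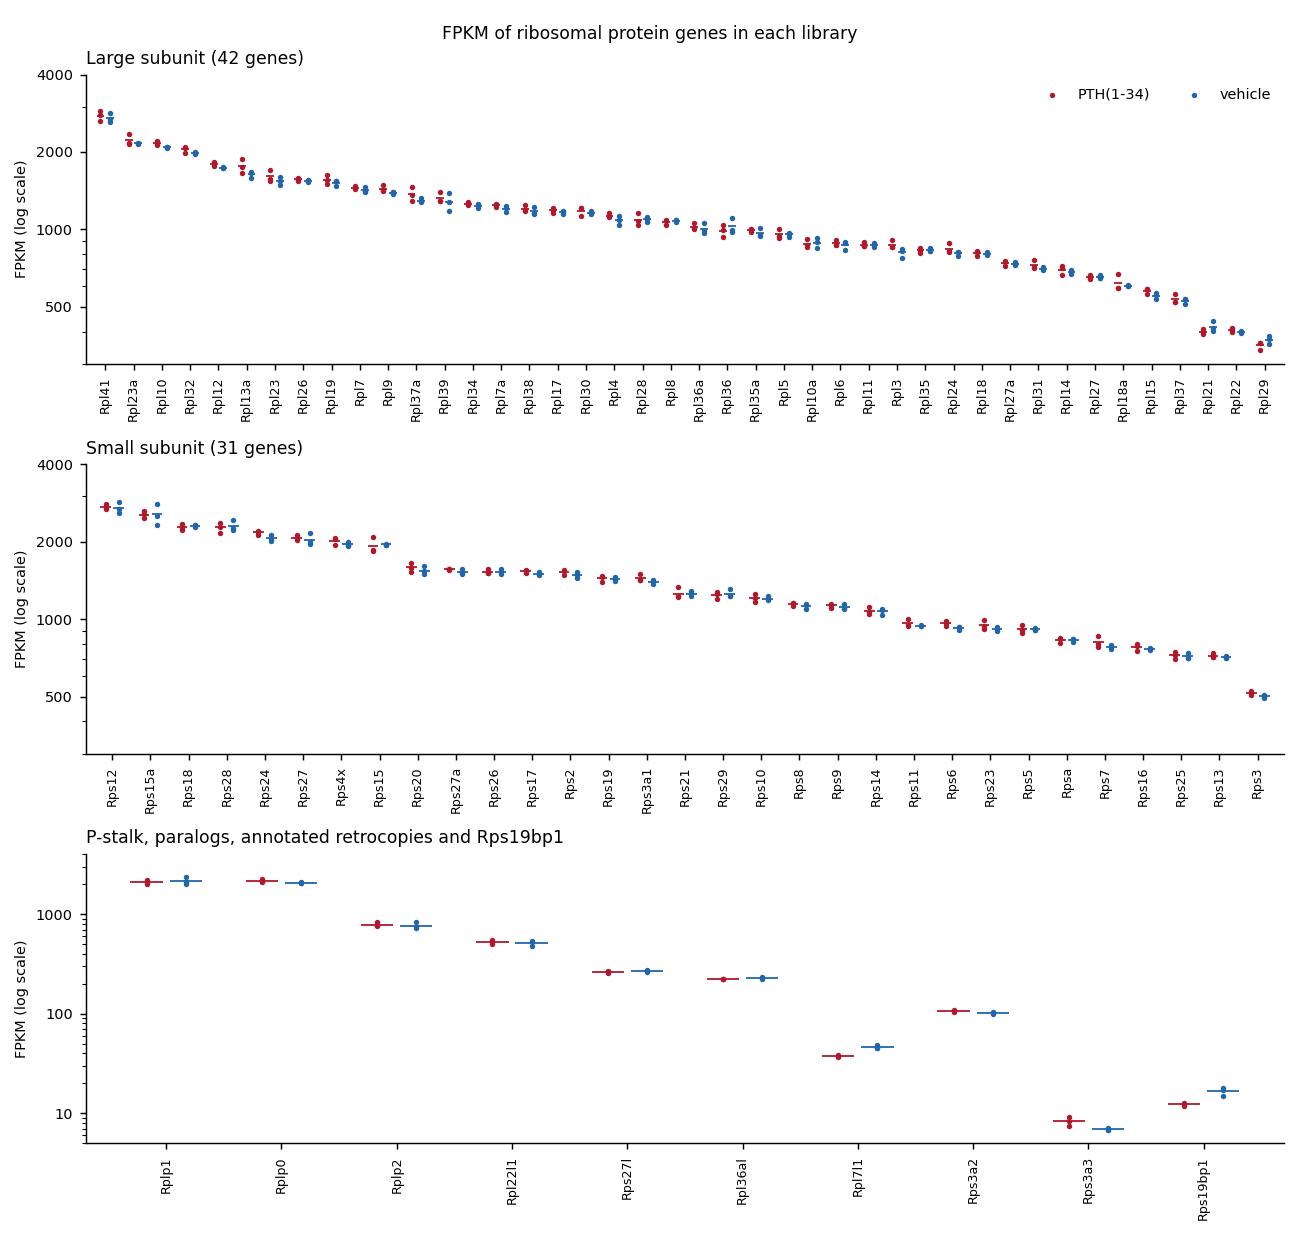
FPKM on a log scale for each ribosomal protein gene, with 1 point per library and a line at the group mean (PTH left, vehicle right, 3 libraries each). Levels of the 76 standard genes lie between 363 (Rpl29) and 2744 FPKM (Rpl41) on average. Among the genes of the bottom panel, Rpl7l1 and Rps19bp1 lie lower with PTH and Rps3a3 lies higher.

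None of the 76 genes passed the test between PTH and vehicle. The test was limma on log2(FPKM + 0.5) over all 11628 genes at an adjusted p under 0.05, and 0 of the 76 reached an unadjusted p under 0.05 either. In the same test 51.7% of all genes passed, 10.8% higher and 41% lower. The log2 changes of the 76 ran from -0.07 for Rpl29 to 0.11 for Rpl13a with a median of 0.03, beside a median of -0.15 for all genes tested. Positive values were found in 61 and negative values in 15. The change was within 0.1 on the log2 scale in 75 of the 76, and 25.6% of all genes tested were as close to 0. The 95% confidence intervals of the 76 together reached from -0.21 to 0.24. Bulk libraries cannot tell fewer cells of a kind from less RNA per cell.

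The summed FPKM of the 76 genes was 99106, 94480 and 97384 with PTH, against 96197, 95246 and 94401 with vehicle. The sums overlapped between the groups. The short RNA genes Mir5105 and Gm26053 took 19.0 to 39.6% and 2.49 to 16.6% of a library's FPKM total, so shares were taken without them. On that base the 76 genes made up 22.0 ± 0.331% of FPKM with PTH and 21.5 ± 0.755% with vehicle (SD, n = 3 each). The large-subunit sum was 1.09 ± 0.00225 times the small-subunit sum with PTH and 1.08 ± 0.0258 times with vehicle (SD, n = 3 each).

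Within the large subunit, the largest positive log2 differences were 0.11 in Rpl13a, 0.10 in Rpl3, 0.08 in Rpl37a and 0.07 in Rpl15. Rpl13a, which is also known as part of an interferon-responsive translation inhibitor in human cells, had 1882, 1662 and 1741 FPKM with PTH, against 1582, 1664 and 1656 FPKM with vehicle. The groups overlapped because PTH 2 fell within the vehicle range, and the difference had an SE of 0.06 (limma adjusted p = 0.153). Rpl3, a core protein near the catalytic centre, had 851, 852 and 906 FPKM with PTH, against 774, 826 and 842 FPKM with vehicle. All PTH values of Rpl3 lay above all vehicle values, yet the difference of 0.10 (SE 0.05) did not pass (limma adjusted p = 0.148). It passed with the replicate number as a block (adjusted p = 0.0486), where 63.8% of all genes passed and 13.8% were called higher. The most negative values were in Rpl29, Rpl21, Rpl36 and Rpl8. Rpl29 had 360, 340 and 362 FPKM with PTH, against 383, 358 and 374 FPKM with vehicle, a difference of -0.07 (SE 0.05, limma adjusted p = 0.231). The highest PTH value of Rpl29 stood above the lowest vehicle value. Rpl21, Rpl36 and Rpl8 differed by -0.06, -0.05 and -0.01.

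Rpl5 and Rpl11, which form a particle with 5S rRNA and bind Mdm2 when ribosome assembly fails, were nearly level. Rpl5 averaged 959 ± 40.9 FPKM with PTH and 955 ± 18.9 FPKM with vehicle (SD, n = 3 each). Rpl11 averaged 871 ± 20.3 FPKM with PTH and 872 ± 13.0 FPKM with vehicle (SD, n = 3 each). Their 95% intervals were -0.10 to 0.11 for Rpl5 and -0.09 to 0.09 for Rpl11 on the log2 scale. Rpl10, which completes the large subunit late in its assembly, had 2141, 2129 and 2204 FPKM with PTH, against 2073, 2093 and 2099 FPKM with vehicle. Its groups did not overlap, and its difference of 0.05 had an adjusted p of 0.319 in limma. Rpl38, whose loss in the mouse gives skeletal patterning defects, averaged 1202 ± 33.2 FPKM with PTH and 1176 ± 35.1 FPKM with vehicle (SD, n = 3 each), a difference of 0.03 with a 95% interval of -0.07 to 0.13. Rpl39, which lines the exit tunnel of the growing chain, averaged 1323 ± 58.2 FPKM with PTH and 1276 ± 101 FPKM with vehicle (SD, n = 3 each).

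Within the small subunit the range was narrower, from -0.02 for Rps18 to 0.07 for Rps24. Rps24, a gene mutated in some patients with Diamond-Blackfan anaemia, had 2208, 2131 and 2181 FPKM with PTH, against 2131, 2058 and 2010 FPKM with vehicle. Its log2 difference was 0.07 (SE 0.04, limma adjusted p = 0.180), with 1 PTH value equal to the highest vehicle value at this rounding. Rps6, the protein that S6 kinases phosphorylate downstream of mTOR, had 983, 942 and 965 FPKM with PTH, against 908, 931 and 933 FPKM with vehicle. The PTH values of Rps6 lay above the vehicle values by a narrow margin, and the difference of 0.06 (SE 0.04) did not pass (limma adjusted p = 0.219). Rps7, which can also bind Mdm2, differed by 0.07, and Rps23, a protein of the decoding centre, by 0.05. The most negative after Rps18 were Rps28, Rps15 and Rps29, between -0.02 and -0.01. Rps19, in humans the gene most often mutated in Diamond-Blackfan anaemia, averaged 1440 ± 39.4 FPKM with PTH and 1430 ± 24.9 FPKM with vehicle (SD, n = 3 each). Rps14, lost in the human 5q- syndrome, averaged 1078 ± 37.1 FPKM with PTH and 1075 ± 30.2 FPKM with vehicle (SD, n = 3 each). Rpsa, which also acts as a laminin receptor, and Rps3, which has a DNA repair role as well, differed by 0.00 and 0.05. The 3 PTH values of Rps3 (518, 508 and 527 FPKM) stood above the 3 vehicle values (495, 507 and 499 FPKM).

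Of the P-stalk genes, Rplp0 had 2230, 2089 and 2130 FPKM with PTH, against 2058, 2083 and 2074 FPKM with vehicle. Rplp1 had 2202, 2003 and 2049 FPKM with PTH, against 2356, 2094 and 2020 FPKM with vehicle. Rplp2 had 826, 754 and 772 FPKM with PTH, against 826, 730 and 746 FPKM with vehicle. The groups were apart for Rplp0 and overlapped for both acidic proteins, Rplp1 and Rplp2. Their log2 differences were 0.05, -0.05 and 0.03, and none passed.

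In 8 of the 76 genes every PTH library exceeded every vehicle library, and in 0 the reverse held, while 13.1% of all genes tested lay wholly above and 47.5% wholly below. The 8 were Rpl3, Rpl9, Rpl10, Rpl12, Rplp0, Rps3, Rps3a1 and Rps6, with log2 differences of 0.05 to 0.10.

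**Figure D2:**
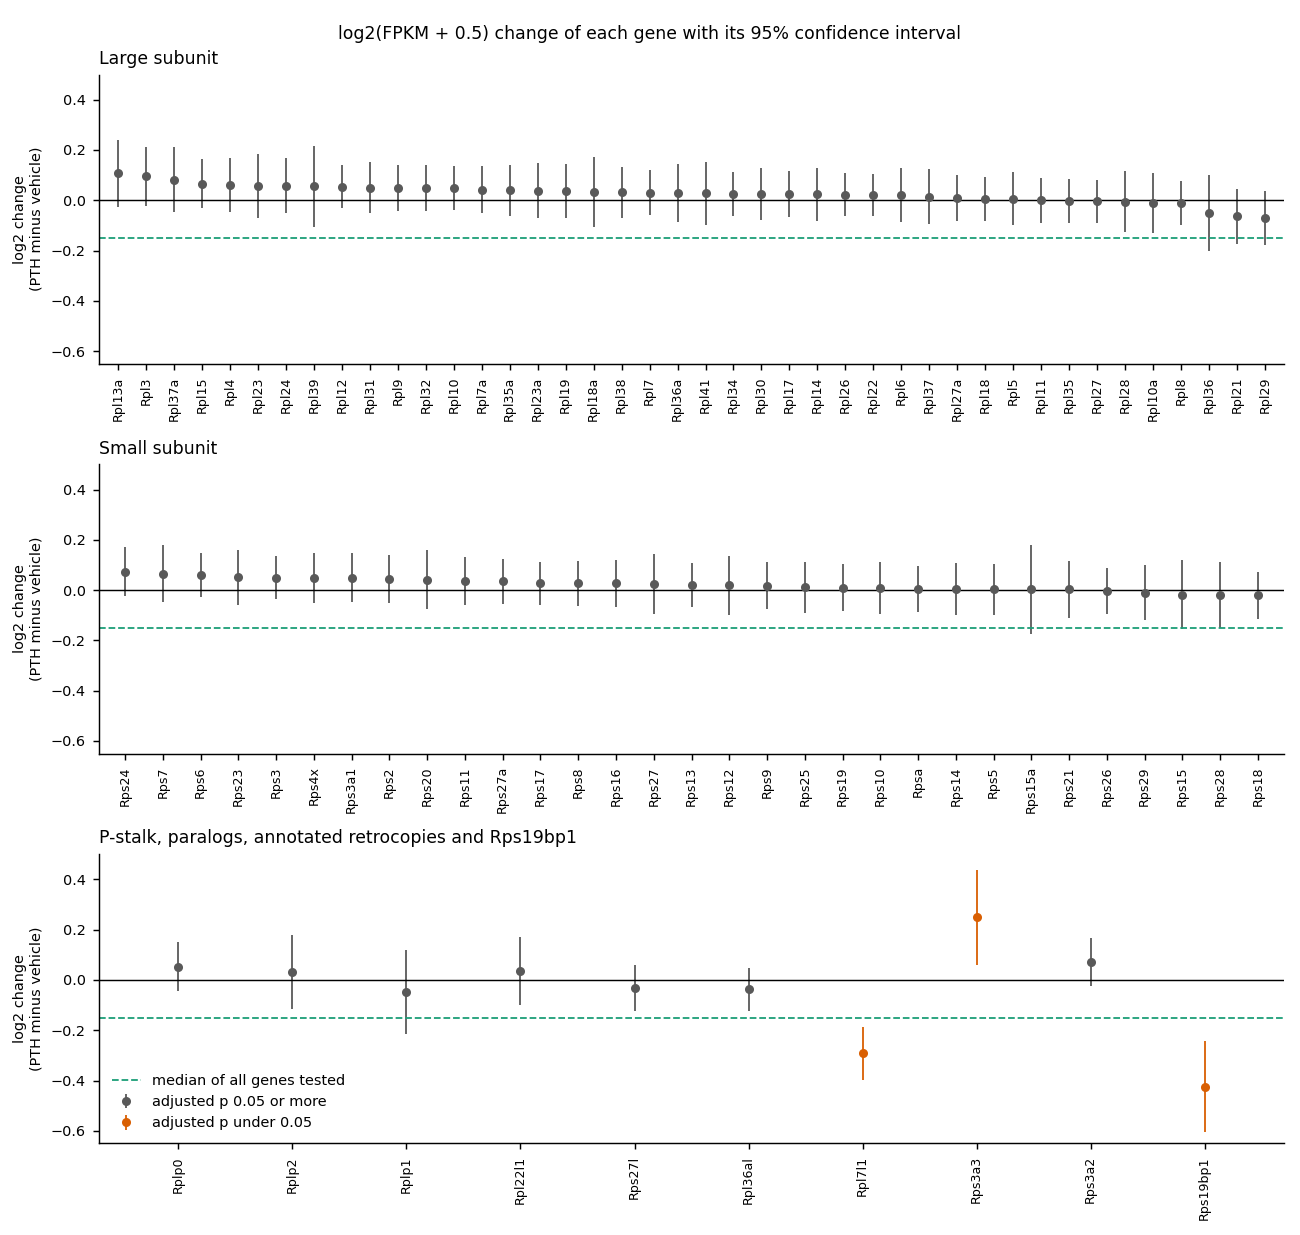
log2(FPKM + 0.5) change, PTH minus vehicle, of each gene with its 95% confidence interval from limma (3 libraries per group). The dashed line is the median of all genes tested, -0.15. The intervals of all 76 standard genes include 0, and the 3 genes that passed the test, Rpl7l1, Rps3a3 and Rps19bp1, are in the bottom panel.

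These differences are small enough to depend on how the libraries are put on a common scale. The median gene stood at 10.9 ± 0.0665 FPKM with PTH and 11.9 ± 0.0358 FPKM with vehicle (SD, n = 3 each). Setting the library medians equal, called centring here, added 0.12 to all log2 differences. With centred libraries, 58 of the 76 genes passed as higher and none as lower, with a median of 0.15, and 18.3% of all genes passed as higher and 24% as lower. The 58 were 34 large-subunit, 23 small-subunit and 1 P-stalk gene. Over all 83 genes 60 were higher after centring. That count was 41 without PTH 1, 45 without PTH 2, 20 without PTH 3, 45 without vehicle 1, 30 without vehicle 2 and 18 without vehicle 3. In those fits 13.7 to 16.5% of all genes were called higher. Cyclic loess, which also levels out trends with abundance, gave a median of -0.019 with 16 of the 76 positive and 0 called by limma and 0 at an unadjusted p under 0.05, while 37.8% of all genes passed and 20.2% were higher. Quantile normalisation gave a median of -0.00 with 36 positive and 0 called by limma and 2 at an unadjusted p under 0.05, while 26.6% of all genes were lower. On the TPM scale, which sets every library to the same total, all 76 were positive with a median of 0.12 and 0 passed at an unadjusted p under 0.05, while 7.4% of all genes were higher. Leaving Mir5105 and Gm26053 out of that total gave a median of 0.04 with 67 positive and 0 called or at an unadjusted p under 0.05. Relative to the median of all genes, the 76 genes were 0.18 higher as deposited and 0.03 lower under cyclic loess. The sign of the family's change thus turned with the choice of scale.

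Change followed level among the other genes. Other genes of at least 500 FPKM, 58 in number, had a median log2 change of -0.00 as deposited, and 5.17% of them were called lower and 13.8% higher. Other genes between 100 and 500 FPKM had a median of 0.00, those between 10 and 100 FPKM a median of -0.11, and those between 1 and 10 FPKM a median of -0.24. With centred libraries, other genes of at least 500 FPKM had a median of 0.12 with 29.3% called higher. Those between 100 and 500 FPKM had a centred median of 0.13 with 34.7% called higher. The median of the 76 genes was 0.03 above that of the 58 other genes of at least 500 FPKM as deposited, and 0.02 above it under cyclic loess, and the medians differed by -3.3e-04 under quantile normalisation. The part of abundance in the difference from all genes was not tested further.

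**Figure D3:**
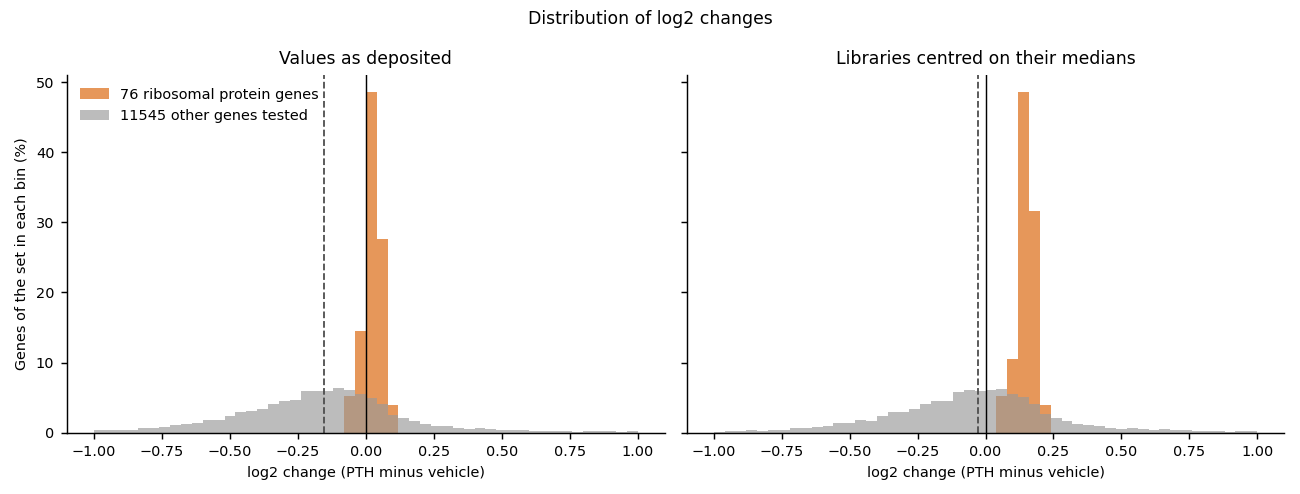
Histograms of the log2 change, PTH minus vehicle, as the percentage of each gene set per bin, for the 76 standard ribosomal protein genes and the 11545 tested genes that are not members, as deposited (left) and with centred libraries (right). Dashed lines mark the medians of the genes that are not members, of which 576 (left) and 586 (right) lie beyond the axis. The 76 genes form a narrow peak, at a median of 0.03 on the left and 0.15 on the right.

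**Figure D4:**
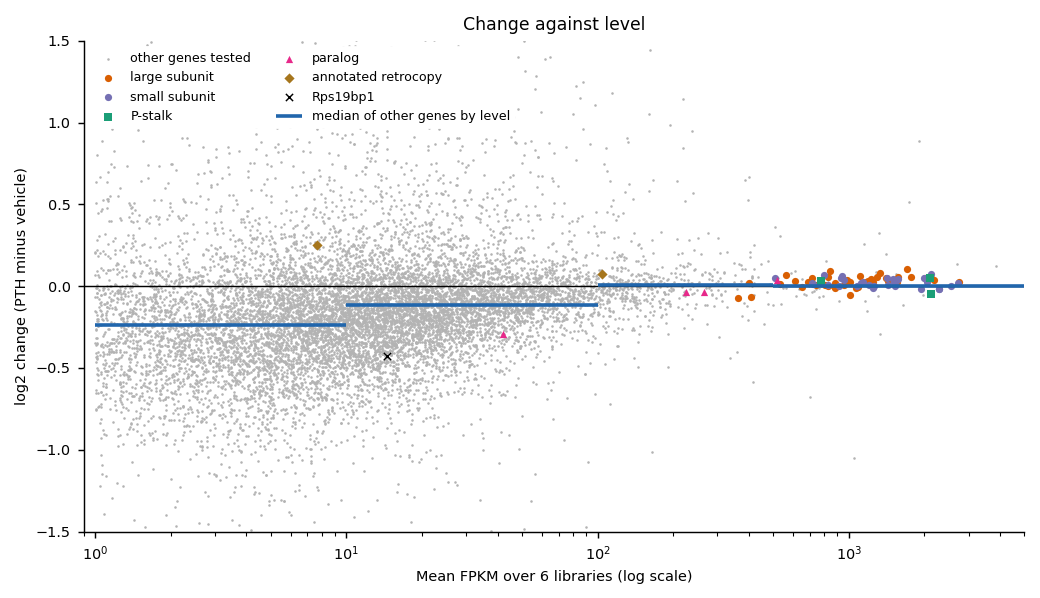
log2 change, PTH minus vehicle, against mean FPKM over the 6 libraries (log scale), with members coloured by role and bars at the median of the other genes in 4 ranges of level. Other genes centre on -0.24 at 1 to 10 FPKM and on -0.00 at 500 FPKM and above, where most members lie. Changes beyond 1.5 in either direction fall outside the plot.

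The genes that did pass as deposited lay outside the 76. Rpl7l1 (ENSMUSG00000063888; chromosome 17, 46773907 to 46782672, minus strand, GRCm38) encodes a nucleolar relative of Rpl7 that takes part in large-subunit assembly. It had 36.7, 37.9 and 38.2 FPKM with PTH, against 45.1, 48.2 and 45.2 FPKM with vehicle. The groups were well apart, and the log2 difference was -0.29 (SE 0.04, limma adjusted p = 0.00195). Rps19bp1 (ENSMUSG00000051518; chromosome 15, 80260615 to 80264315, minus strand) had 12.7, 12.4 and 11.9 FPKM with PTH, against 15, 18.1 and 17.3 FPKM with vehicle. Its difference was -0.42 (SE 0.08, limma adjusted p = 0.00365), with no overlap. Both also passed as lower with centred libraries, at -0.17 (adjusted p = 0.0263) for Rpl7l1 and -0.30 (adjusted p = 0.0185) for Rps19bp1. With centred libraries the call of Rpl7l1 held without vehicle 1 and was lost without any other single library, and that of Rps19bp1 was lost without PTH 3, vehicle 2 or vehicle 3. On the TPM scale neither passed, at -0.20 (SE 0.19, adjusted p = 0.602) for Rpl7l1 and -0.34 (SE 0.19, adjusted p = 0.238) for Rps19bp1, where 9.96% of all genes were called lower. With Mir5105 and Gm26053, the dominant genes, left out of TPM both passed, at -0.28 (adjusted p = 0.0061) and -0.42 (adjusted p = 0.0037). As deposited, Rps19bp1 missed the threshold without the pair of libraries numbered 3 (adjusted p = 0.0594).

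Rps3a3 (ENSMUSG00000059751; chromosome 13, 108670603 to 108671397, plus strand) had 7.46, 8.41 and 9.26 FPKM with PTH, against 6.82, 6.88 and 7.13 FPKM with vehicle. The difference was 0.25 (SE 0.08, limma adjusted p = 0.0364), with the PTH values wholly above. Without PTH 2, PTH 3 or any 1 of the vehicle libraries the adjusted p lay between 0.0733 and 0.0942. On the TPM scale Rps3a3 differed by 0.34 and missed the threshold (SE 0.18, adjusted p = 0.224). With the dominant genes left out of TPM it passed at 0.27 (adjusted p = 0.0369). The annotated transcript of Rps3a3 is identical to that of Rps3a1 at 98.9% of 795 aligned bases, and the transcript of Rps3a2 is identical to it at 99.5% of 792. Rps3a1, the coding gene, averaged 1446 ± 44.0 FPKM with PTH and 1398 ± 28.6 FPKM with vehicle (SD, n = 3 each), and Rps3a2 averaged 107 ± 2.60 FPKM with PTH and 102 ± 2.68 FPKM with vehicle. How the estimate divides reads among such copies is uncertain, and reads of Rps3a1 counted for Rps3a3 cannot be told apart from its own. Ribosomal protein genes have many such copies, and the table holds 67 symbols of the left-out -ps kind, whose summed FPKM was 2.52 to 2.65% of that of the 76 genes. Of their 62 tested members 9 were called higher and 1 lower as deposited, with a median of 0.09, beside 10.8% higher and 41% lower of all genes. With centred libraries 36 were higher and 0 lower, beside 18.3% and 24% of all genes.

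The ratio of a paralog to its partner in the same library is unaffected by a factor that applies to every gene of that library, though not by quantile or cyclic loess normalisation. It was compared in 5 pairs by an exact permutation test, two-sided, whose smallest p with 3 against 3 libraries is 0.1. Rpl7l1 stood at 0.0256, 0.0268 and 0.0263 times Rpl7 with PTH, against 0.0313, 0.0347 and 0.0325 times with vehicle, so all PTH ratios were lower. The log2 ratio differed by -0.32 (exact p = 0.1, 0.25 adjusted over 5 pairs). Rplp2 stood at 0.375, 0.376 and 0.377 times Rplp1 with PTH, against 0.351, 0.348 and 0.369 times with vehicle, a difference of 0.08 without overlap (exact p = 0.1, 0.25 adjusted). Rplp1 and Rplp2 form the paired arms of the stalk. Rpl22l1, which can replace Rpl22, averaged 527 ± 25.5 FPKM with PTH and 514 ± 27.1 FPKM with vehicle (SD, n = 3 each), and its log2 ratio to Rpl22 differed by 0.02 (exact p = 0.7). Rps27l, a p53 target in human cells, differed from Rps27 by -0.06 (exact p = 0.4). Rpl36al, with 223, 222 and 222 FPKM with PTH, against 232, 231 and 222 FPKM with vehicle, differed from Rpl36a by -0.07 (exact p = 0.2).

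At the level of single transcripts, 303 of the 336 were tested and 3 were called higher and 8 lower, 3.63% together, while 30.3% of all 21983 transcripts tested passed, 8.13% higher and 22.2% lower. Of the 8 lower transcripts, 4 are retained-intron forms, from Rpl6, Rplp2, Rps10 and Rps19. The Rps19 form (ENSMUST00000130335) had 5.46, 4.22 and 6.10 FPKM with PTH, against 7.95, 8.68 and 8.14 FPKM with vehicle, a log2 difference of -0.62 (SE 0.13, limma adjusted p = 0.0142). The Rps10 form (ENSMUST00000150763) had 3.89, 4.03 and 4.03 FPKM with PTH, against 5.74, 5.08 and 6.67 FPKM with vehicle, a difference of -0.49 (SE 0.10, limma adjusted p = 0.0149). Both forms were apart between the groups, at under 1% of the level of their gene. Retained-intron forms of members had a median change of -0.03 over 91 tested and those of other genes a median of -0.17 over 2616, of which 17.3% were lower. They made up 3.21, 3.32 and 3.34% of the members' FPKM with PTH, against 3.23, 3.27 and 3.31% with vehicle.

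Of the 3 higher transcripts, the one of Rpl36a (ENSMUST00000170828) is annotated as a target of nonsense-mediated decay, the pathway that removes mRNAs with early stop codons. It had 10.0, 9.57 and 9.62 FPKM with PTH, against 7.07, 7.71 and 6.33 FPKM with vehicle, a difference of 0.45 (SE 0.08, limma adjusted p = 0.00868), and the groups were apart. The others belonged to Rpl7a and Rpl9. The longer coding form of Rpl22 (ENSMUST00000139685) fell to 29.3, 27.9 and 28.96 FPKM with PTH, against 35.9, 33.8 and 32.1 FPKM with vehicle, a difference of -0.24 (SE 0.05, limma adjusted p = 0.0199), and was not called with centred libraries (adjusted p = 0.184). Its shorter form (ENSMUST00000103191) carried most of the gene, with 367, 360 and 374 FPKM with PTH, against 358, 356 and 354 FPKM with vehicle. Transcripts of 1 gene that changed unequally were found by limma's diffSplice in Rpl13a (adjusted p = 0.0378) and Rplp2 (adjusted p = 0.0218), 2 of 56 genes, while 11.7% of all 4818 genes passed. The set was not stable. With the replicate number as a block, where 15.1% of all genes passed, it held Rpl23, Rpl24, Rpl36a, Rpl9, Rplp2 and Rps19, and without PTH 1 it held 0 genes. With that block 25.1% of all transcripts were lower and 9.43% higher, beside 18 and 10 of the 303.

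The authors' deposited table compares single transcripts and names its groups q1 and q2. Genes such as Il6 show the direction of q2 over q1 to be PTH over vehicle. In the authors' deposited table none of the 336 transcripts had a q-value under 0.05, against 7.62% of all 37478, and the smallest q of a member was 0.184. The median log2 change of the highest transcript of each of the 76 genes was 0.19 in the authors' deposited table, ranging from 0.09 to 0.32, while its median over all transcripts was -0.01. Fitted here from FPKM as deposited, the highest transcripts of the 76 genes had a median of 0.03, from -0.07 to 0.13. The authors' changes thus stand on another scale than those above, and the reason was not tested.

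Genes that build or regulate the ribosome were set beside its proteins, from lists chosen by function. Each list's counts stand against 41% lower and 10.8% higher of all genes as deposited, and 24% lower and 18.3% higher with centred libraries. Under cyclic loess 17.6% of all genes were lower and 20.2% higher. In ribosome biogenesis 22 of 40 tested genes were lower and none higher, with a median of -0.24. With centred libraries 12 were lower and 2 higher, near the 24% lower of all genes. Wdr12, part of the complex that matures large-subunit rRNA, fell to 7.33 ± 0.287 FPKM with PTH, against 11.6 ± 0.782 FPKM with vehicle (SD, n = 3 each), a log2 change of -0.62 (limma adjusted p = 4.0e-04). Rrp9, a U3 snoRNP protein, fell by 0.61 on the log2 scale, and Nob1, the nuclease that finishes 18S rRNA, fell by 0.59. Rrp12, an export factor of pre-ribosomes, fell by 0.51.

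In the list of RNA polymerase I and rRNA transcription 11 of 20 were lower and none higher, with a median of -0.22, beside 41% of all genes lower. With centred libraries 9 were lower and 2 higher, and under cyclic loess 5 were lower and 1 higher at a median of -0.04. Cd3eap, a polymerase I subunit, fell to 4.68 ± 0.489 FPKM with PTH, against 9.82 ± 0.930 FPKM with vehicle (SD, n = 3 each), a change of -0.99 (limma adjusted p = 3.1e-04). Polr1b, the second largest subunit, fell by 0.56, the termination factor Ttf1 by 0.55 and Taf1b, of the promoter selectivity factor, by 0.43.

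Among the 78 mitochondrial ribosomal proteins, which serve the separate ribosome of that organelle, 48 were lower and 1 higher, with a median of -0.22. As deposited 41% of all genes were lower. With centred libraries 23 were lower and 1 higher, near the 24% lower of all genes. Mrps18b, Mrpl49, Mrps27 and Mrps2 fell by 0.62, 0.59, 0.56 and 0.54 on the log2 scale. Their median mean level was 23.4 FPKM, against 1154 FPKM for the cytosolic family, so both lists lie at different points of the trend with level given above. As deposited, the mitochondrial list lay below the other genes between 10 and 100 FPKM, whose median was -0.11 with 38.6% called lower. The part of level in the contrast between both lists was not tested. Under cyclic loess 22 mitochondrial genes were lower and 2 higher, and 8 of 40 biogenesis genes were lower and 3 higher. In that setting 17.6% of all genes were lower and 20.2% higher. On the TPM scale 2 mitochondrial, 3 biogenesis and 1 polymerase I gene were called lower, beside 9.96% of all genes.

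The factors of initiation and elongation, whose list also takes in their kinases and binding proteins, gave 17 lower and 2 higher of 60 tested, a smaller share lower than the 41% of all genes, with a median of -0.05. With centred libraries 14 were higher and 5 lower at a median of 0.07, and under cyclic loess 4 were higher and 4 lower. Eif1, which guards start codon choice, rose to 470 ± 35.4 FPKM with PTH, against 325 ± 12.1 FPKM with vehicle (SD, n = 3 each), a change of 0.53 (limma adjusted p = 7.2e-04). Eef2k, Eif2ak4 and Eif4ebp1, which restrain translation, fell by 0.71, 0.52 and 0.49. Rrp12, Eef2k and, of the regulators below, Tsc1 missed the threshold under cyclic loess. Of 17 other TOP mRNAs none was called, with a median of -0.00, and 6 were higher after centring. Tpt1 averaged 2823 ± 79.1 FPKM with PTH and 2570 ± 167 FPKM with vehicle, and Vim 1583 ± 135 FPKM with PTH and 1713 ± 92.6 FPKM with vehicle (SD, n = 3 each). Fau and Gnb2l1, which encode ribosomal proteins that the name rule does not reach, had changes of 0.00 and 0.03, and neither passed.

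**Figure D5:**
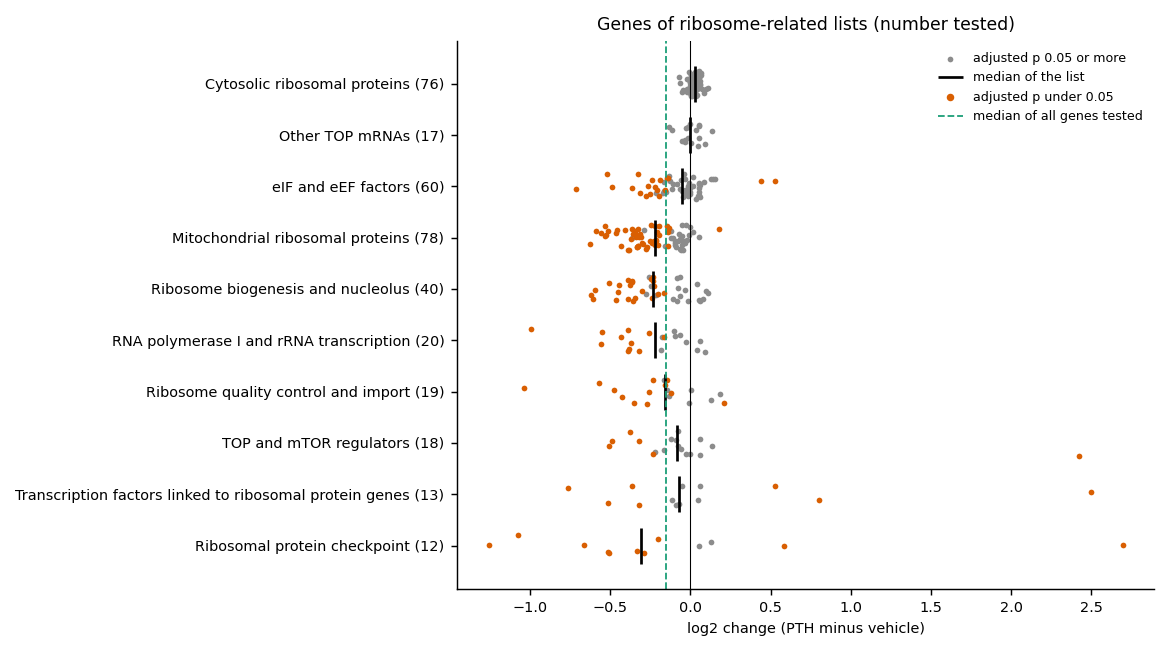
log2 change, PTH minus vehicle, of each tested gene in the cytosolic ribosomal protein family and in 9 lists chosen by function (number tested in brackets). Orange points passed limma at an adjusted p under 0.05, black bars are list medians, and the dashed line is the median of all genes tested. The 76 ribosomal protein genes lie between -0.07 and 0.11 with none called. Of 78 mitochondrial ribosomal protein genes 48 were called lower, beside 41% of all genes. With centred libraries 23 of the 78 were lower, beside 24% of all genes. The median level was 1154 FPKM in the cytosolic family and 23.4 FPKM in the mitochondrial list, and change followed level among other genes. Other genes between 10 and 100 FPKM had a median change of -0.11, against -0.22 in the mitochondrial list.

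Regulators of the family gave some of the largest changes in the lists. Ddit4, an inhibitor of mTORC1, rose to 109 ± 8.21 FPKM with PTH, against 20.0 ± 2.52 FPKM with vehicle (SD, n = 3 each), a log2 change of 2.42 (limma adjusted p = 1.2e-05). It was the only higher gene among 18 TOP and mTOR regulators, of which 5 were lower, including Sesn2 (-0.51), Eif4ebp1 (-0.49) and Tsc1 (-0.38), beside 10.8% higher and 41% lower of all genes. With centred libraries 2 were higher and 3 lower, and under cyclic loess 3 were higher and 2 lower. The list median was -0.08 as deposited and 0.04 with centred libraries. Of 13 transcription factors linked to these genes, 3 were higher and 4 lower, beside 10.8% and 41% of all genes, with a median of -0.07 as deposited and 0.05 with centred libraries. Mxi1, a Max partner that opposes Myc, rose to 17.9 ± 0.483 FPKM with PTH, against 2.76 ± 0.163 FPKM with vehicle (SD, n = 3 each), a change of 2.50 (limma adjusted p = 1.1e-06). Mxd1 and Mnt, of the same kind, rose by 0.80 and 0.53, and Sp1 fell by 0.76.

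In the list of the p53 checkpoint that free ribosomal proteins can set off, 8 of 12 were lower and 2 higher, with a median of -0.31, beside 41% lower and 10.8% higher of all genes. With centred libraries 6 were lower and 4 higher, beside 24% and 18.3% of all genes. Btg2, an antiproliferative p53 target, rose by 2.70 on the log2 scale, while the p53 targets Bbc3, Phlda3 and Sesn1 fell by 1.26, 1.07 and 0.66. Of 19 genes of ribosome quality control and import, 11 were lower and 1 higher, with a median of -0.16, beside a median of -0.15 and 41% lower for all genes. With centred libraries 5 were lower and 3 higher, near the 24% lower and 18.3% higher of all genes. Pelo, which rescues stalled ribosomes, fell by 1.04, Pdcd2, a chaperone of Rps2, by 0.57, Grwd1 by 0.48 and Gcn1l1 by 0.43.

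The spread within a group was small for these genes, with a median SD of 0.04 on the log2 scale over the 76, against 0.09 for all genes tested and 0.08 for the other genes of at least 500 FPKM. The widest spread was in Rps15a, whose main transcript of 250 bases is the shortest of the 76. It had 2465, 2554 and 2633 FPKM with PTH, against 2816, 2523 and 2321 FPKM with vehicle. The vehicle libraries thus spanned more than the PTH libraries did. Over the 76 genes, deviation from the group mean followed the length of the main transcript in opposite directions in vehicle 1 and vehicle 3, with Spearman's rho of -0.47 and 0.49. The same measure lay between -0.18 and 0.33 in the other libraries. These are descriptions across genes of the same library, which are not independent, and the part of length in the differences between groups was not tested.

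The line was checked against its labelled type. All 9 osteoblast markers were tested, 3 higher and 2 lower, beside 10.8% higher and 41% lower of all genes. Their summed level was 898 to 993 FPKM with PTH and 885 to 966 FPKM with vehicle. The single markers were less steady than this sum, with log2 changes from -2.56 to 2.35. Chondrocyte markers summed to 25.4 to 31.3 FPKM with PTH and 10.3 to 14.3 FPKM with vehicle, and Sox9, itself present in osteoblast precursors, was the 1 called of 2 tested. Adipocyte markers summed to at most 5.71 FPKM with PTH and 7.27 FPKM with vehicle, and those of macrophages and blood to at most 11.7 FPKM with PTH and 13.3 FPKM with vehicle. No skeletal muscle or endothelial marker reached the filter.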

How the data were processed

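Per the labels' protocols, TRIzol RNA was made into strand-specific mRNA libraries and sequenced as paired-end reads of 100 bases. The authors deposited FPKM for each transcript. The submitters' processing notes name Cufflinks and build mm10. The aligner is not given in the sources used here, nor are versions and annotation. Beside FPKM, the authors deposited, per the file headers, the log2 fold change of their own comparison with its p-value and q-value.

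FPKM were summed per symbol. FPKM totals ran from 618221 to 853916, and no steps of 1 read could be found among low values, so the depth is unknown and no counting interval is given. Groups were compared with limma 3.58.1 in R 4.3.3 (lmFit, then eBayes with trend) on log2(FPKM + 0.5) for 11628 genes with a mean of at least 1 FPKM, two-sided, without a block, with Benjamini-Hochberg adjustment over all of them, a scale that understates the change of low genes. Transcripts were fitted likewise, with diffSplice for unequal change. Same-numbered libraries deviated together (correlations of 0.42, 0.28 and 0.28), so the numbers were taken to pair them, and the blocked fit is an alternative. Gene coordinates, biotypes and transcript sequences are from GENCODE M21 (GRCm38), 1-based. Start regions are from RefSeq (GRCm38.p6). Runs that reach the end of the window may be longer.

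The named members are, for each role, up to 4 with the largest positive and negative difference, the 5 highest and 5 lowest levels, and members with known roles. List genes are up to 4 with the largest change that passed, or up to 2 of the highest where none did. Rps3a1, the genes whose groups did not overlap and the transcripts were chosen after their values were seen. The members and lists were chosen with earlier results of these data known. Alternatives varied the scaling, pseudocount, filter, summing and libraries. Tables and figures used Python 3.11.15, pandas 2.3.3, scipy 1.17.1, Biopython 1.88 and matplotlib 3.10.9.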

Additional observations from a re-analysis of the deposited data

How the results depend on the processing

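As deposited, 2 of the 83 genes chosen by name were called lower (Rpl7l1 and Rps19bp1, which is no ribosomal protein), 1 was called higher (the annotated pseudogene Rps3a3) and the median log2 change was 0.03. Centred on the library median, 60 were called higher, beside 18.3% of all genes, and the median was 0.15. Quantile normalisation called 4 lower, the 2 additional ones being Rpl36al and Rps27l. TPM called 0 lower and 0 higher in limma, with 0 at an unadjusted p under 0.05, and a median of 0.12. TPM without the 2 dominant genes, chosen after seeing the data, called 2 lower and 1 higher at a median of 0.04. Protein-coding transcripts only, which leave out Rps3a3, called 0 higher in limma. Cyclic loess, chosen after seeing the data as was leaving out libraries with centring, gave a median of -0.019. With the replicate block 2 were called higher, beside 13.8% of all genes. With the replicate block and centring 70 were called higher at a median of 0.15, beside 24.9% of all genes. With the replicate block and cyclic loess 2 were called higher and 3 lower at a median of -0.019, beside 26.6% and 24.4% of all genes. The additional lower one was Rplp1 (-0.11, limma adjusted p = 0.0489), the 1 standard gene called lower under any setting tried. Replicate pair 2 left out called 0 higher, and replicate pair 3 left out called 1 lower and 0 higher. Leaving out 1 library at a time gave 0 to 1 called higher, 2 to 2 called lower and a median between 0.01 and 0.04.

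Of 1990 results for a member under an alternative, 284 had the opposite sign to the values as deposited, with the member called in neither. In 13 others the sign turned and the alternative called the member. Centred, Rpl11 (0.12), Rpl27 (0.12), Rpl35 (0.12), Rpl8 (0.11) and Rps26 (0.12) became positive and passed. With the replicate block and centring, Rpl10a (0.11), Rpl11 (0.12), Rpl27 (0.12), Rpl35 (0.12), Rpl8 (0.11), Rps26 (0.12), Rps28 (0.10) and Rps29 (0.11) did. Centring adds 0.12 to every difference by construction.

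Of 303 transcripts, 8 were called lower and 3 higher, beside 22.2% and 8.13% of all transcripts tested. Centred, 4 were lower and 36 higher, beside 12.2% and 11.6% of all. A filter of at least 5 FPKM gave 5 lower and 3 higher of 198, while 37.8% of all were called. The replicate block gave 18 lower and 10 higher, beside 25.1% and 9.43% of all, and 6 genes of unequal transcript change, beside 15.1% of all genes. Without 1 library at a time the transcripts called lower numbered 5 to 8, those called higher 1 to 5, and genes of unequal transcript change 0 to 4. In those fits 20.8 to 24.9% of all transcripts were called, and 8.76 to 9.90% of all genes had unequal transcript change. The paralog ratios kept their direction under the pseudocounts tried, with the highest transcript only and without 1 library at a time, except Rpl22l1 to Rpl22. That ratio difference was -0.01 with the highest transcript only, and lay between -0.0193 and 0.04 without 1 library. The replicate block left the ratio differences as they were, and the smallest p of the exact permutation test with that block is 0.25. No depth is known, which limits every statement on small differences.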
